A study of Homo sapiens with 4 samples.

Results

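The transcripts described here are 31 genes of the p53 pathway: regulators of p53 and genes that p53 is known to switch on, many of them acting in cell cycle arrest and apoptosis. They were taken by symbol from the 58735 genes of the tables, and all 31 were matched to a gene ID. RNA-seq was performed on 4 libraries labelled Huh7, a human liver cancer line. Of these, 2 came from cells carrying a control short hairpin RNA (shCtrl 1 and 2) and 2 from cells carrying a hairpin against NME7 (shNME7 1 and 2). No treatment or time point is named for either group, and the labels do not say whether the replicates were separate cultures or clones. The p-values therefore measure only the spread between these libraries, which may be technical. The comparison asks what changes when NME7, a nucleoside diphosphate kinase family gene, is knocked down.

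p53 is a transcription factor that is held low by the ubiquitin ligase MDM2 and its partner MDM4, and that accumulates when DNA is damaged or growth signals are abnormal. It then induces genes that stop the cell cycle, repair DNA or start apoptosis, and it also induces MDM2, which closes a feedback loop. Many of its targets keep a basal transcription that does not need p53, and several, such as PMAIP1, TNFRSF10B and SESN2, are also induced by the ATF4 and CHOP stress response. Huh7 is known for a missense mutant form of p53. No genotype was read here.

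The libraries did not carry the marker transcripts of the labelled line. Of 8 genes that mark hepatocytes and Huh7 (ALB, APOA1, APOB, TTR, AFP, GPC3, HNF4A and SERPINA1), 7 had at most 3 fragments in each library. Their summed level was 0.0516 and 0.104 FPKM in shCtrl 1 and 2, against 0.110 and 0.0858 FPKM in shNME7 1 and 2, where FPKM counts fragments relative to gene length and sequencing depth. APOA1, APOB and GPC3 were at 0 fragments in all 4 libraries. The marker levels therefore go against the label, and what is known of p53 in Huh7 is not carried over to these cells. The 6 fibroblast markers summed to between 92.1 and 102.7 FPKM, with overlapping groups. Most of that came from the collagen gene COL3A1, at 66.9 to 76.6 FPKM. COL1A1 lay between 8.44 and 10.8 FPKM and LUM between 9.9 and 14.5 FPKM. PDGFRB was low, at 1.24 to 1.77 FPKM, DCN was at 0.0311 to 0.0734 FPKM and COL1A2 at most 0.0113 FPKM. The fibroblast list was therefore not of one direction. The leukocyte markers PTPRC, CD3E and LYZ were at 0 in every library, and CD14 lay between 0.0353 and 0.250 FPKM, with overlapping groups. The 4 endothelial markers summed to 2.29 and 1.94 FPKM in shCtrl 1 and 2, against 2.81 and 3.47 FPKM in shNME7 1 and 2, with KDR at 0. That sum was higher in both knockdown libraries. Most of it came from CDH5, at 1.705 and 1.315 FPKM in shCtrl 1 and 2, against 1.882 and 2.672 FPKM in shNME7 1 and 2. PECAM1, at 0.559 to 0.909 FPKM, was also higher in both, whereas VWF, at 0.00567 to 0.0242 FPKM, had overlapping groups. The part of these markers in the results was not tested. In such bulk samples, fewer cells of a type and less RNA per cell cannot be told apart.

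NME7 itself was 3.64 and 3.93 FPKM in shCtrl 1 and 2, against 0.835 and 0.626 FPKM in shNME7 1 and 2, so both knockdown libraries were lower. The log2 difference was -1.47 (SE 0.17, limma-trend adjusted p 0.310), and limma-voom on recovered fragments called it (-2.40, SE 0.26, adjusted p 0.00121). Between 14877906 and 16991397 fragments were recovered per library. Of all genes, 12866 had a mean of at least 1 FPKM over the 4 libraries and were tested with limma-trend on log2(FPKM + 1). A difference on this scale understates the change of low genes. The test called 0 of the 12866 genes at an adjusted p under 0.05 (0% of those tested), while limma-voom called 16 of 15112 (0.106%). An unadjusted p under 0.05 in limma-trend was found for 859 genes (6.68%). Without shCtrl 1, shCtrl 2, shNME7 1 or shNME7 2, limma-trend called 133, 112, 632 and 277 genes.

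Of the 31 members, 28 passed the filter on low values and 3 did not. SPATA18, whose product Mieap acts in mitochondrial quality control, had 0 fragments in all 4 libraries, which allows up to 3 fragments in each, or 0.177 to 0.202 CPM, for counting error alone. TP53INP1, which encodes a p53-induced nuclear protein that promotes cell death, had 5 and 3 fragments in shCtrl 1 and 2, against 7 and 0 in shNME7 1 and 2. EDA2R, an X-linked receptor of the tumour necrosis factor family, had 6 and 7 fragments in shCtrl 1 and 2, against 0 and 3 in shNME7 1 and 2. These counts lie near what a count of 0 allows, and no fold is given for them. These 3 transcripts were thus at or near the detection limit beside targets such as CDKN1A, ZMAT3 and CCNG1 with at least 1730 fragments in every library.

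Most of the 28 members were well expressed, and 18 lay above the median level of the tested genes. The median member stood at 9.11 FPKM and the median tested gene at 6.79 FPKM. CDKN2A and CCNG1 were highest, with means over the 4 libraries at the 96.0th and 95.4th percentile of the tested genes. CDKN1A and TRIAP1 followed at the 91.6th and 90.1th percentile. TNFRSF10B, ZMAT3, PMAIP1 and BAX lay between the 83.4th and 89.3th percentile. The negative regulators MDM2 and MDM4 were both near the 42.4th percentile. SESN1, PLK2, PLK3, SERTAD1 and BBC3 were the lowest of the 28, between the 28.9th and 34.8th percentile. The tested target genes thus ran from SESN1 at the 28.9th to CCNG1 at the 95.4th percentile, with SPATA18, TP53INP1 and EDA2R below the filter. No library with known p53 activity was available for comparison, so how much of each level depends on p53 was not tested.

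**Figure D1:**
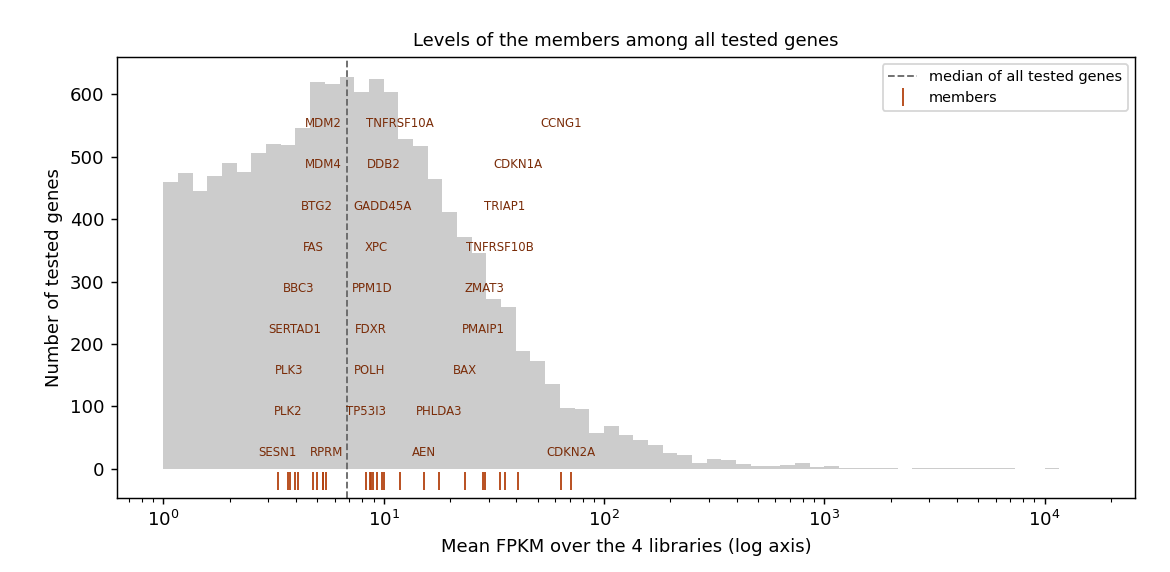
Histogram of the mean FPKM over the 4 libraries (log axis) for the 12866 tested genes, with a tick and a name for each of the 28 tested members and a dashed line at the median of all tested genes. Of the members, 18 lie to the right of the dashed line, with CDKN2A and CCNG1 farthest right and SESN1 farthest left.

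Sequences around the annotated start sites are shown here to let the known p53 motif be seen where it lies close to a start. Membership as a known p53 target rests in part on p53 binding, so how often the motif occurs among the members is a description. RefSeq promoter windows on GRCh38.p14, each from 250 bases before to 50 bases after a start, were found for 26 of the 31 members. They were searched for the p53 half-site consensus (3 purines, C, 2 bases that are A or T, G and 3 pyrimidines), which reads the same on both strands. A half-site occurred in a window of 6 members, DDB2, AEN, FDXR, SESN1, FAS and PLK2, which is 23.1% of those with a window against 8.06% of all genes with one. By exact match, DDB2 was alone among them in having a pair of half-sites, separated by a single base just after its start. A pair is the arrangement of a full p53 response element. Half-sites with a mismatch to the consensus were not searched for, so the other 5 may hold a second, inexact one. The 30 bases from the DDB2 start and the 150 bases before the start of the other 5 follow, 5′ to 3′ on the strand of the gene, with the half-sites in capitals. Starts are those of RefSeq transcripts, which for all 6 lie inside the gene as annotated by GENCODE, and the SESN1 start is that of a shorter transcript far inside the gene. A match describes these letters only, and elements known to lie elsewhere, such as those upstream of CDKN1A or in the first intron of MDM2, are outside what the consensus and windows cover.
DDB2 (chr11:47214974-47215003, plus strand): ggtttGAACAAGCCCtGGGCATGTTTggcg
AEN (chr15:88621190-88621339, plus strand): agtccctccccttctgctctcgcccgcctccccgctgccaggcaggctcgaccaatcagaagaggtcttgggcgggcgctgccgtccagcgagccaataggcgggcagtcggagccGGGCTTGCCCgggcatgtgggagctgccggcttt
FDXR (chr17:74872995-74873144, minus strand): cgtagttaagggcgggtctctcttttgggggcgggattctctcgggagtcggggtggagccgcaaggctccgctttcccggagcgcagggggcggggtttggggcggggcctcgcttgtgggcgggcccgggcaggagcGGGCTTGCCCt
SESN1 (chr6:109008989-109009138, minus strand): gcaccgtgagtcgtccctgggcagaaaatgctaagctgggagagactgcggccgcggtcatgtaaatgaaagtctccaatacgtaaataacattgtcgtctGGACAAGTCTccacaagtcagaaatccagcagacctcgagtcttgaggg
FAS (chr10:88991281-88991430, plus strand): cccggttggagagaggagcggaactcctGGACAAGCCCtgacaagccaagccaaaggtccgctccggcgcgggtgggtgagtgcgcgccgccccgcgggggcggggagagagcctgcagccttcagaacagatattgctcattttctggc
PLK2 (chr5:58460087-58460236, minus strand): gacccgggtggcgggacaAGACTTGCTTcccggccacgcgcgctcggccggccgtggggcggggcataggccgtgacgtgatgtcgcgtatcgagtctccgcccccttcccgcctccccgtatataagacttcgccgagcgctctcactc

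Over the 28 tested members, 16 had a higher and 12 a lower mean in shNME7, and the median log2 difference was 0.08, against 0.01 over all 12866 tested genes. None passed the adjusted threshold in limma-trend (smallest adjusted p 0.598, 1 member at an unadjusted p under 0.05) or in limma-voom (smallest adjusted p 0.425). An unadjusted p under 0.05 in limma-voom was found for 4 members, where 7.87% of the 15112 genes had one. Both knockdown libraries were above both controls for 8 members (BTG2, SESN1, AEN, FDXR, PLK3, DDB2, TRIAP1 and FAS), where 17.8% of all tested genes had that order. They were below both for 4 members (RPRM, PMAIP1, PPM1D and TNFRSF10B), where 18.4% of all tested genes did. The 95% interval lay within 1 log2 unit of 0 on either side for 26 of the 28, the exceptions being PHLDA3 and RPRM. The median size of a difference, regardless of sign, was 0.18 for the members and 0.14 for all tested genes. No direction was common to the members in these libraries, and the intervals do not show that their levels were equal.

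**Figure D2:**
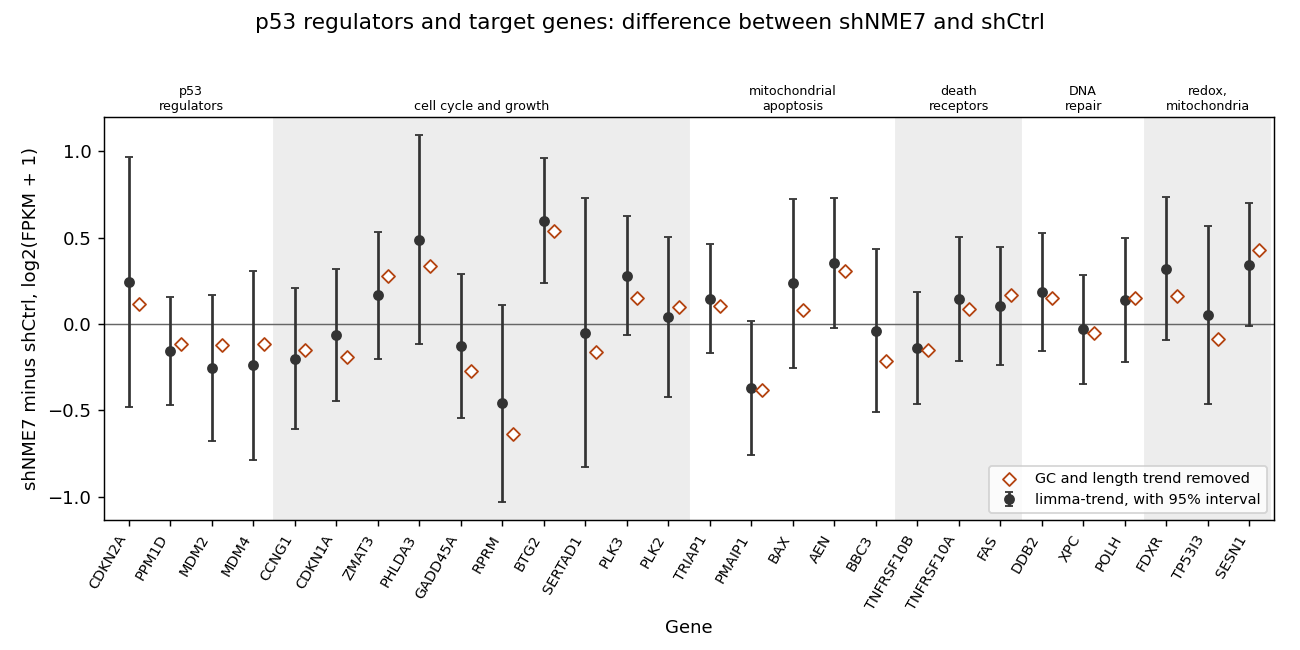
Log2 difference of each tested member, shNME7 minus shCtrl on the log2(FPKM + 1) scale, from limma-trend (black points, bars are 95% intervals) and after removal of a GC and length trend (open diamonds). The interval includes 0 for 27 of the 28 members, BTG2 being the exception.

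All 6 members with a half-site in a window had a higher mean in shNME7, with a median log2 difference of 0.25. Of 18 tested members without a half-site, 8 did (median -0.04). Among the 6, PLK2 (0.04, SE 0.19) and FAS (0.10, SE 0.14) had differences smaller than their SE. Over all tested genes with a window, 48.5% of the 641 with a half-site and 51.5% of the 8104 without had a higher mean. Across all tested genes, a half-site did not go with a larger share of higher means. The split was looked at after the members' values were known and has no test. With the GC and length trend removed the 6 were still all higher (median 0.16), and without shCtrl 1 it was 5 of 6, PLK2 being the exception. The members without a half-site depended on single libraries: 11 of 18 were higher without shCtrl 1 (median 0.10) and 11 of 18 without shNME7 1 (median 0.03), against 6 of 18 without shCtrl 2 (median -0.13) and 8 of 18 without shNME7 2 (median -0.05).

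Among the regulators of p53, 3 of 4 had a lower mean in shNME7 and 0 passed the test. MDM2 (ENSG00000135679, chromosome 12, 68808176 to 68850686, plus strand), the ubiquitin ligase that both restrains p53 and is induced by it, was 5.33 and 6.41 FPKM in shCtrl 1 and 2, against 5.44 and 4.09 FPKM in shNME7 1 and 2. Only shNME7 2 was below both controls, so the groups overlapped. The log2 difference was -0.26 (SE 0.17, 95% interval -0.68 to 0.17, limma-trend adjusted p 0.826). MDM4, its non-ligase partner, was 5.34 and 6.17 FPKM in shCtrl, against 6.11 and 3.59 FPKM in shNME7 1 and 2. Its low value in shNME7 2 set the difference, which was -0.24 with all libraries and 0.08 without shNME7 2. PPM1D, the phosphatase WIP1 that shuts off the DNA damage response, was 9.28 and 9.61 FPKM in shCtrl and 8.39 FPKM in both shNME7 libraries. Here the groups did not overlap, but the difference was small, at -0.15 (SE 0.13, limma-trend adjusted p 0.837).

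CDKN2A (ENSG00000147889, chromosome 9, 21967753 to 21995301, minus strand) encodes both the CDK4 and CDK6 inhibitor p16INK4a and ARF, which sequesters MDM2. Its level was 79.5 and 49.9 FPKM in shCtrl 1 and 2, against 58.6 and 95.1 FPKM in shNME7 1 and 2. The replicates of each group lay far apart, and the highest and the second highest value came from different groups. A table of gene totals does not tell the transcripts of p16INK4a from those of ARF. The log2 difference of 0.24 (SE 0.30) became negative without shCtrl 2 (-0.09) or without shNME7 2 (-0.10).

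The 10 tested genes of cell cycle arrest and growth restraint were evenly divided, 5 with a higher and 5 with a lower mean in shNME7. CDKN1A (ENSG00000124762, chromosome 6, 36676460 to 36687339, plus strand) encodes p21, the cyclin-dependent kinase inhibitor through which p53 halts the cell cycle. It was 45.7 and 37.4 FPKM in shCtrl 1 and 2, against 37.7 and 41.5 FPKM in shNME7 1 and 2. Both knockdown libraries lay between the controls. The log2 difference was -0.06 (SE 0.16), with a 95% interval from -0.44 to 0.32, so a doubling or halving of CDKN1A lay outside the interval. Its sign changed without shCtrl 1 (0.08) and without shNME7 1 (0.0049). With the GC and length trend removed the difference was -0.19 (95% interval -0.375 to -0.007, limma-trend adjusted p 0.355).

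BTG2 (ENSG00000159388, chromosome 1, 203305491 to 203309602, plus strand), an antiproliferative gene and p53 target that is also an early response gene, had the largest difference of the 28 with all 4 libraries, in limma-trend and limma-voom. RPRM exceeded it in size after subtraction of the GC and length trend (-0.64), without shCtrl 2 (-0.57) and without shNME7 2 (-0.79). PHLDA3 exceeded it without shCtrl 1 (0.71). Without shNME7 1, BTG2 was at 0.53, and PHLDA3 (0.80), CDKN2A (0.59), MDM4 (-0.56) and PMAIP1 (-0.54) were larger in size. The level of BTG2 was 4.10 and 3.42 FPKM in shCtrl 1 and 2, against 6.52 and 5.87 FPKM in shNME7 1 and 2. These came from 180, 152, 270 and 275 fragments. Both knockdown libraries were above both controls, and the means were 3.76 ± 0.484 and 6.19 ± 0.455 FPKM (SD, n = 2 each), 1.65-fold higher. The log2 difference was 0.60 (SE 0.15, 95% interval 0.24 to 0.96), which did not pass over all genes (limma-trend adjusted p 0.598). Before subtraction of the GC and length trend, BTG2 was the single member with an unadjusted p under 0.05 in limma-trend. That mark was reached by 6.68% of all tested genes. After the subtraction, BTG2 was among 7 such members of the 28, and the mark was then reached by 1748 of all 12866 tested genes. limma-voom gave 0.71 (SE 0.22, adjusted p 0.425), and with the GC and length trend removed the limma-trend value was 0.54.

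The pleckstrin homology protein gene PHLDA3, an inhibitor of AKT, was 17.04 and 12.2 FPKM in shCtrl 1 and 2, against 16.5 and 25.8 FPKM in shNME7 1 and 2. shNME7 1 lay between the controls, and shNME7 2 alone stood above them. The difference of 0.49 (SE 0.25, adjusted p 0.795 in limma-trend) was called without shNME7 1, at 0.80 (adjusted p 0.00733), where the lone remaining knockdown library was assumed to vary like the controls. Without shNME7 2 it was 0.18. RPRM, an inducer of G2 arrest encoded by a short gene, was 7.01 and 5.90 FPKM in shCtrl and 3.30 and 5.80 FPKM in shNME7 1 and 2. The groups did not overlap, but shNME7 2 and shCtrl 2 were almost level. Its difference of -0.46 (SE 0.24) became -0.79 without shNME7 2, where it was called (limma-trend adjusted p 0.0118), and -0.13 without shNME7 1.

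PLK3, a stress-responsive polo-like kinase gene, was 3.25 and 3.31 FPKM in shCtrl and 3.98 and 4.43 FPKM in shNME7, without overlap (difference 0.28, SE 0.14, limma-trend adjusted p 0.795). Its relative PLK2 was 2.91 and 4.41 FPKM in shCtrl 1 and 2, against 3.82 and 3.63 FPKM in shNME7 1 and 2, both within the control range. CCNG1, the cyclin G1 gene, was even at 66.8, 69.8 and 67.4 FPKM in shCtrl 1, shCtrl 2 and shNME7 1 and lower in shNME7 2, at 52.2 FPKM. ZMAT3, which encodes an RNA-binding p53 effector, ranged from 25.5 to 33.1 FPKM over the 4 libraries. GADD45A, a DNA damage-inducible growth arrest gene, ranged from 8.81 to 11.97 FPKM and SERTAD1, a CDK4-binding protein gene, from 2.49 to 5.40 FPKM. All 3 had overlapping groups, and SERTAD1 had the widest error of the 28 tested members (SE 0.32).

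**Figure D3:**
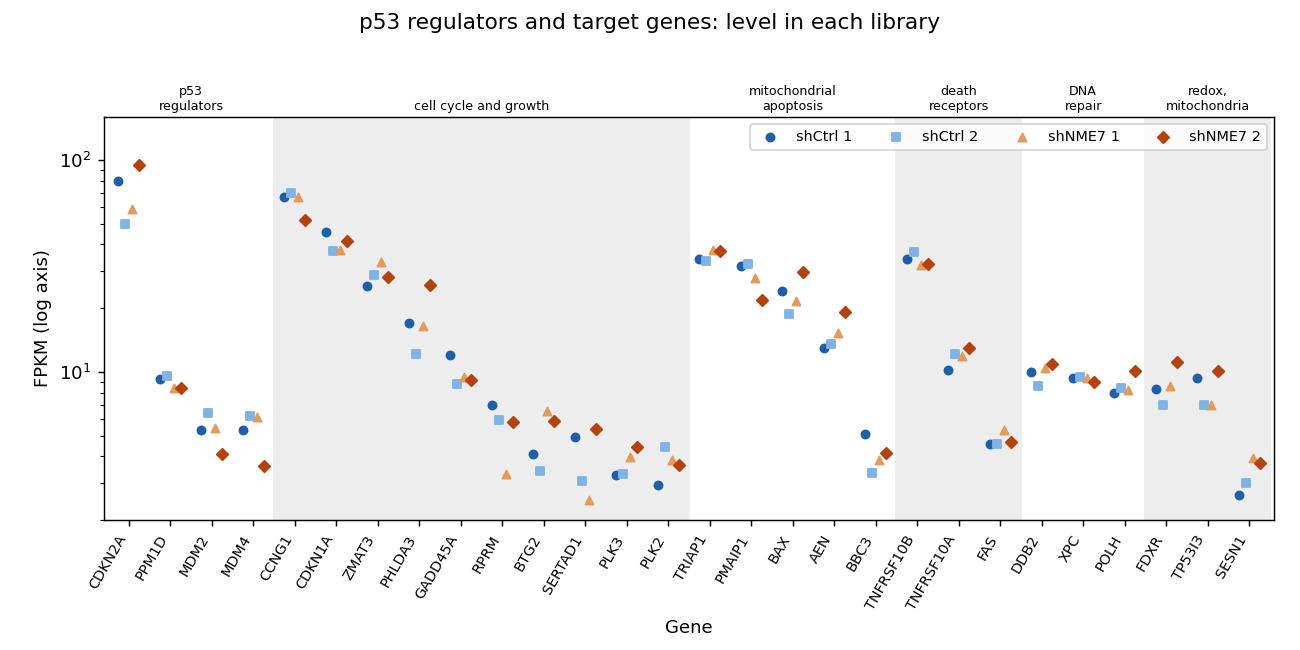
FPKM (log axis) of the 28 tested members in each library, ordered by role and level. Blue circles and squares are shCtrl 1 and 2, and orange triangles and diamonds are shNME7 1 and 2. The pairs of BTG2 stand clear of each other, whereas CDKN1A, MDM2 and CDKN2A have interleaved libraries.

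Of the 5 genes of mitochondrial apoptosis, 3 had a higher and 2 a lower mean in shNME7, and none passed in limma-trend or limma-voom. PMAIP1 (ENSG00000141682, chromosome 18, 59899948 to 59904306, plus strand) encodes the BH3-only protein NOXA, which neutralises MCL1. It was 31.6 and 32.4 FPKM in shCtrl 1 and 2, against 27.7 and 21.8 FPKM in shNME7 1 and 2. Both knockdown libraries were lower than both controls, with means of 32.0 ± 0.562 and 24.7 ± 4.19 FPKM. The log2 difference was -0.37 (SE 0.16, 95% interval -0.76 to 0.02, limma-trend adjusted p 0.757), and it stayed between -0.54 and -0.20 over 11 alternatives. BBC3, which encodes the BH3-only protein PUMA, was 5.08 and 3.33 FPKM in shCtrl 1 and 2, against 3.83 and 4.17 FPKM in shNME7 1 and 2. Its knockdown values lay inside the control range, and its difference was -0.04 (SE 0.20).

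BAX, the pore-forming effector of the mitochondrial pathway, was 24.1 and 18.9 FPKM in shCtrl 1 and 2, against 21.5 and 29.6 FPKM in shNME7 1 and 2. Only shNME7 2 exceeded both controls. AEN, an exonuclease gene that promotes apoptosis, was 12.9 and 13.5 FPKM in shCtrl and 15.3 and 19.2 FPKM in shNME7 1 and 2, without overlap. Its difference of 0.35 (SE 0.16, limma-trend adjusted p 0.771) ranged from 0.20 to 0.51 over 11 alternatives. TRIAP1, which encodes a small inhibitor of apoptosis, was tightly measured at 34.1 and 33.3 FPKM in shCtrl and 37.6 and 37.3 FPKM in shNME7. The groups were apart by more than the spread within either, but the difference of 0.15 (SE 0.13) did not pass (limma-trend adjusted p 0.838).

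The tested death receptor genes differed little between the groups. TNFRSF10B, the TRAIL receptor DR5, was 34.1 and 36.9 FPKM in shCtrl 1 and 2, against 31.9 and 32.3 FPKM in shNME7 1 and 2, a non-overlapping difference of -0.14 (SE 0.13, limma-trend adjusted p 0.843). TNFRSF10A, the TRAIL receptor DR4, was 10.2 and 12.2 FPKM in shCtrl and 11.9 and 12.9 FPKM in shNME7. These neighbouring genes therefore had differences of opposite sign, neither past the threshold, and the difference between them was not tested. FAS, the receptor of FAS ligand, was 4.59 and 4.56 FPKM in shCtrl and 5.33 and 4.68 FPKM in shNME7 1 and 2. Both knockdown values were higher, shNME7 2 only by a small margin.

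The DNA repair genes were close to even. XPC, the damage sensor of global nucleotide excision repair, lay between 8.96 and 9.46 FPKM in all 4 libraries, with a log2 difference of -0.03 (SE 0.13, 95% interval -0.34 to 0.28). Of its exon length, 23.8% is shared with an antisense gene, AC093495.1, at 0.396 to 0.479 FPKM, and 6.63% with LSM3 on the other strand, at 10.9 and 11.6 FPKM in shCtrl, against 14.5 and 15.6 FPKM in shNME7. LSM3 was thus higher in both knockdown libraries, and its part in the XPC value was not tested. DDB2, which recognises ultraviolet damage and has the paired half-sites shown above, was 9.997 and 8.60 FPKM in shCtrl 1 and 2, against 10.4 and 10.9 FPKM in shNME7 1 and 2, without overlap (difference 0.19, SE 0.14, limma-trend adjusted p 0.836). POLH, the translesion polymerase eta gene, was 7.99, 8.39 and 8.25 FPKM in shCtrl 1, shCtrl 2 and shNME7 1 and higher in shNME7 2, at 10.1 FPKM.

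All 3 tested genes of redox and mitochondrial function had a higher mean in shNME7, and 0 passed. SESN1 (ENSG00000080546, chromosome 6, 108986437 to 109094819, minus strand), a sestrin that restrains mTORC1, was 2.61 and 2.98 FPKM in shCtrl and 3.91 and 3.71 FPKM in shNME7. Both knockdown libraries were above both controls, and the difference was 0.34 (SE 0.15, 95% interval -0.01 to 0.70, limma-trend adjusted p 0.756), or 0.43 with the GC and length trend removed. FDXR, the ferredoxin reductase gene, was 8.29 and 6.99 FPKM in shCtrl 1 and 2, against 8.56 and 11.1 FPKM in shNME7 1 and 2. Its groups did not overlap, and its difference of 0.32 (SE 0.17) was 0.16 with the GC and length trend removed. TP53I3, a quinone oxidoreductase gene also known as PIG3, was 9.35 and 6.999 FPKM in shCtrl 1 and 2, against 6.99 and 10.1 FPKM in shNME7 1 and 2, with no order between the groups. Its difference of 0.05 turned to -0.09 with that trend removed.

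The spread between replicates followed the GC content of the genes. Of the 14 members above the median GC content of 51.7%, 11 were higher in shCtrl 1 than in shCtrl 2 and 12 were higher in shNME7 2 than in shNME7 1. Of the 14 at or below it, 3 and 4 were. As a description across the 28 members, which share the libraries, Spearman's rho with GC content was 0.74 for shCtrl 1 minus shCtrl 2 and 0.80 for shNME7 2 minus shNME7 1. The same values over 12857 tested genes were 0.64 and 0.66. For the group difference rho was 0.29 over the members and 0.42 over all genes. GC-rich members such as CDKN2A, PHLDA3, BAX and SERTAD1 had their 2 highest values in shCtrl 1 and shNME7 2 with shNME7 2 first, and 9 of the 14 GC-rich members were highest in shNME7 2, against 2 of the 14 GC-poor ones. The lowest value was in shNME7 2 for 4 of the 14 GC-poor members, MDM2, MDM4 and CCNG1 among them, and for 1 GC-rich member. The part of GC content in single differences was not tested beyond the removal of its trend.

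**Figure D4:**
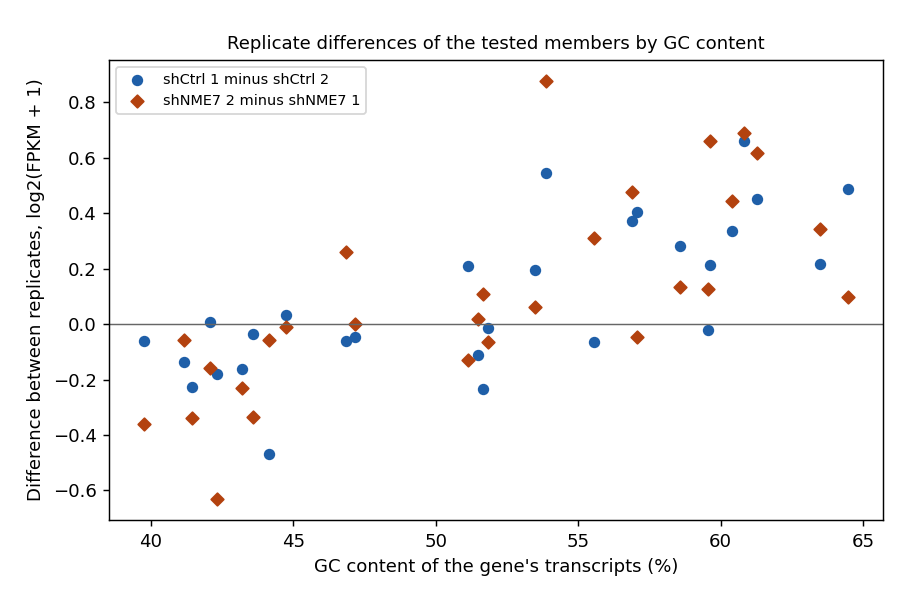
Difference between the replicates of each group on the log2(FPKM + 1) scale against the GC content of the gene's transcripts (%), for the 28 tested members. Blue circles are shCtrl 1 minus shCtrl 2 and orange diamonds shNME7 2 minus shNME7 1, and both run from mostly negative at low GC to mostly positive at high GC.

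Other parts of the pathway were read from 5 lists. Of 44 further p53 target genes 35 were tested, with 20 higher and 15 lower means in shNME7, a median log2 difference of 0.07 and 0 called in limma-trend or limma-voom. The largest differences among those that reached a mean of 5 FPKM in either group were in SESN2, a sestrin gene, and ATF3, a stress transcription factor gene. SESN2 was 25.1 and 18.6 FPKM in shCtrl 1 and 2, against 12.3 and 8.85 FPKM in shNME7 1 and 2, a difference of -0.98 (SE 0.21) that did not pass (adjusted p 0.553 in limma-trend and 0.0778 in limma-voom). ATF3 was 7.47 and 6.48 FPKM in shCtrl, against 4.66 and 4.42 FPKM in shNME7 (difference -0.52, SE 0.14, limma-trend adjusted p 0.660). The sestrins SESN1 and SESN2 thus lay on opposite sides of their controls, which was not tested as a difference.

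Of 14 BCL2 family genes 11 were tested, 8 with a higher and 3 with a lower mean (median 0.22, and 0.08 with the GC and length trend removed). BAD, a BH3-only gene, was 10.1 and 8.71 FPKM in shCtrl and 9.15 and 16.99 FPKM in shNME7 1 and 2, so its difference came from shNME7 2. BOK, a BAX-like effector gene, ranged from 6.13 to 12.01 FPKM with overlapping groups. Of 14 caspase and caspase inhibitor genes 12 were tested, 5 higher and 7 lower (median -0.08, and -0.02 with the GC and length trend removed). BIRC2, the inhibitor cIAP1, was 17.4 and 20.2 FPKM in shCtrl 1 and 2, against 16.8 and 12.5 FPKM in shNME7 1 and 2. It was lower in both knockdown libraries and did not pass (difference -0.35, SE 0.18, limma-trend adjusted p 0.795). Of 7 genes of death receptor signalling 5 were tested, 2 higher and 3 lower (median -0.05, and 0.06 with the GC and length trend removed). The adaptor genes FADD, at 5.93 to 13.9 FPKM, and TRADD, at 4.90 to 9.24 FPKM, were highest in shNME7 2 and overlapped between the groups.

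Genes that p53 represses through p21 and the DREAM complex, most of them acting in mitosis or replication, were tested for 22 of 22 members, with 7 higher and 15 lower means and a median log2 difference of -0.09. FOXM1, a transcription factor gene of the G2 and M phases, was 26.5 and 26.7 FPKM in shCtrl and 21.5 and 22.3 FPKM in shNME7, and RRM2, a ribonucleotide reductase gene, was 20.1 and 23.1 FPKM in shCtrl and 19.5 and 15.1 FPKM in shNME7 1 and 2. Neither passed (limma-trend adjusted p 0.795 for each). With the GC and length trend removed the median of the list was -0.03. In all 5 lists 0 genes were called in limma-trend or limma-voom, and at an unadjusted p under 0.05 limma-trend found 4 of the 35 tested further p53 targets and 0 genes of the other lists, beside 6.68% of all tested genes.

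**Figure D5:**
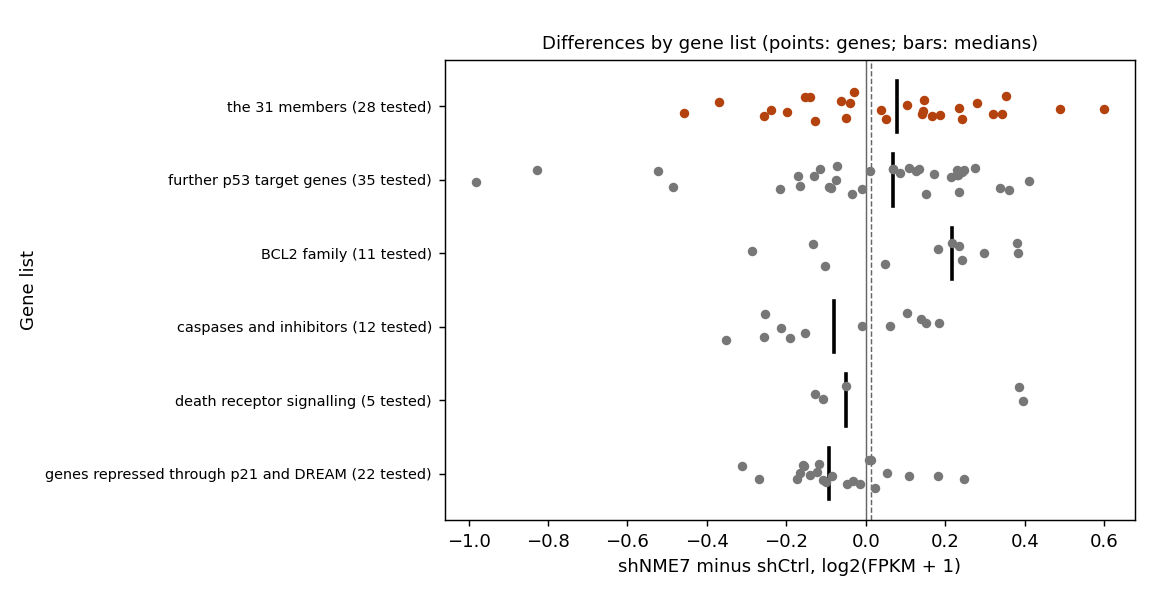
Log2 difference, shNME7 minus shCtrl on the log2(FPKM + 1) scale, for each tested gene of the 31 members and of the 5 further lists (points, spread vertically for sight), with the median of each list as a black bar and the median of all tested genes as a dashed line. The members run from -0.46 for RPRM to 0.60 for BTG2.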

How the data were processed

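Per the file headers, the deposited values are FPKM, 1 file for each of the 4 libraries, over 58735 genes. HISAT2 2.0.5 and the build hg18 are listed in the submitters' processing notes. For the counting tool, annotation and filters, the sources used here give none. Each of the 58735 IDs was found in GENCODE release 29 (GRCh38), from which came names, exon lengths, GC content and coordinates.

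FPKM times exon length gave whole multiples of 1 step per library (100% of values above 0 within 0.01 of a whole number), so fragments were recovered. The floors cover counting error only. The intervals of the log2 differences were computed from the SE of the fit, which rests on the spread between libraries. The test was limma-trend (limma 3.58.1, R 4.3.3) on log2(FPKM + 1) for genes with a mean of at least 1 FPKM, two-sided, with Benjamini-Hochberg adjustment over all tested genes at 0.05. The design named this test for FPKM and a count test for counts. Alternatives were a pseudocount of 0.1, no filter, a replicate block, each library left out, an adjusted p under 0.01, limma-voom on fragments (mean of at least 10, trimmed-mean or median-ratio scaling) and subtraction of a loess curve fitted to GC content and length (span 0.3). The limma-trend fit, with and without the GC and length trend, and the limma-voom fit were tested on simulated counts. These had the same dispersion for every gene and no GC effect, so the GC-linked spread of the real libraries was not covered.

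The members and lists were chosen with earlier results of these data known. All members are named. Of each other list, members past the threshold are named, or otherwise the 2 that differ most, given a mean of at least 5 FPKM in either group. The gene of p53 itself and a few genes of the other lists are not reported here. Of the 31 members, 13 share exon bases with another annotated gene, 12 of them with a gene on the other strand. Whether the counting used strand is not stated, so reads from such pairs cannot be told apart.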

Additional observations from a re-analysis of the deposited data

How the results depend on the processing

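The count of members with a lower mean, 12 of 28, was between 9 and 14 in every alternative run, and their median log2 difference ran from 0.01 to 0.11. Without 1 library, the count of members called ran from 0 to 1 (PHLDA3 without shNME7 1, RPRM without shNME7 2); it was 0 in the other alternatives. The number of genes called, 0 in limma-trend, was 112 to 632 with 1 library left out, where the lone library of a group was assumed to vary like the other group. It was 16 in limma-voom, 20 with median-ratio size factors, 1 after subtraction of the GC and length trend and 13 after it in limma-voom, and limma-voom with 1 library left out, added after seeing the data, called 31 to 401 (37 without shCtrl 1, 41 without shNME7 2). With the replicate number as a block 122 genes and 0 members were called. Replicate differences of the 2 groups correlated at -0.347 across 12866 genes. They also followed GC content, so this value cannot tell whether equal numbers pair the libraries. A crossed pairing, also added after seeing the data, called 0 genes. The count of lower BCL2 family genes, 3, was between 3 and 5 with 1 library left out.

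Of 308 member results under 11 alternatives, 290 kept their direction and their side of the threshold, 2 gained a call and 16 changed sign, in 9 members. TP53I3 changed to -0.085 and, by limma-voom, -0.091 after subtraction of the GC and length trend. The other changes came from leaving out a library, with ranges of -0.187 to 0.288 for TP53I3, -0.555 to 0.0768 for MDM4, -0.204 to 0.0791 for CDKN1A, -0.283 to 0.205 for BBC3, -0.329 to 0.0737 for GADD45A, -0.195 to 0.272 for PLK2, -0.0634 to 0.00153 for XPC, -0.488 to 0.389 for SERTAD1 and -0.102 to 0.586 for CDKN2A. The cause was not tested. Depth limits SPATA18, TP53INP1 and EDA2R, and 5 tested members had under 200 fragments in at least 1 library.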

Other observations

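A gene from the list of further p53 targets that lies outside the rule for named genes was chosen after its values were seen. GDF15, a secreted stress factor, was 38.3 and 23.8 FPKM in shCtrl 1 and 2, against 20.3 and 22.3 FPKM in shNME7 1 and 2. Both knockdown libraries were below both controls, with the high value of shCtrl 1 setting most of the difference (-0.48, SE 0.23, limma-trend adjusted p 0.793). With the GC and length trend removed the difference was -0.66 (SE 0.14, limma-trend adjusted p 0.236), which did not pass either.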
